A study of Mus musculus with 8 samples.

Results

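Immunoglobulin heavy and light chain genes and the J chain gene were followed in lumbar intervertebral discs of mice with proteoglycan-induced spondylitis. They were taken as every probe set whose platform annotation named Jchain or a variable, joining or constant segment of the heavy, kappa or lambda locus. This gave 52 of the 45101 probe sets on the array, naming 27 of 19324 annotated genes. Of the 52, 1 belonged to Jchain, 23 to the heavy locus, 24 to the kappa locus and 4 to the lambda locus. The annotation gave a single gene to 39 of them and several to 13.

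All samples were total RNA of 6 pooled discs (L1 to L6) from female BALB/c mice that carried no engineered allele named in the labels. The 3 naive samples came from age-matched mice. The 5 immunized samples came from mice given cartilage proteoglycan (100 µg protein) with dimethyldioctadecylammonium bromide (2 mg), an adjuvant, on days 0, 21 and 42. The ages and the day of sampling are not given in the sources used here. Of the naive samples replicate 3, and of the immunized samples replicate 1, has a description that joins 2 sample numbers, and whether it holds more than 1 mouse is not stated. The comparison of 5 immunized with 3 naive samples asks how gene expression in the disc differs in spondyloarthropathic mice.

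An antibody is built of paired heavy and light chains. Each light chain is kappa or lambda, and the constant region of the heavy chain sets the isotype, IgM, IgD, IgG, IgA or IgE. A B cell joins variable, diversity and joining segments into its own variable region, and plasma cells, the end stage of B cells, transcribe the assembled chains at very high rates. J chain, made by plasma cells, links IgM and IgA monomers into polymers. In this model the mouse makes antibodies against the injected proteoglycan and against its own cartilage proteoglycan.

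Each probe set is given as log2 expression minus its own median over the 8 arrays, and a step of 1 means a doubling. Levels of different probe sets cannot be set against each other on this scale. A coarse level, read from the step size of the deposited numbers, placed the lowest array at 8 or more (log2) for 13 members, from 4 to 8 for 30 and below 4 for 9. More antibody-producing cells and more immunoglobulin RNA per cell cannot be told apart in these pooled discs. The disc and cartilage markers Acan, Col2a1, Sox9, Comp, Matn3 and Hapln1 were present, with the lowest array at 8 or more in 11 of their 12 probe sets. They ran lower in immunized discs, with a median difference of -0.67 and 2 of the 12 sets, both of Sox9, passing the test (limma). Of 8 sets of notochord and nucleus pulposus markers the median was -1.02, and only 1 passed. It was that of Krt19, a keratin of notochordal cells, which fell by 2.01 on the log2 scale (SE 0.36, adjusted p = 0.0228). The sets of Krt8 and Krt18 differed by -1.30 to -1.01 and those of Cd24a by -0.20 to -0.08. The part of what these markers follow in the immunoglobulin values was not tested.

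Of the 27 genes, only Jchain had a promoter entry in the RefSeq table used here (GRCm38.p6). The 250 bases before its start, chr5:88527898-88528147 on the minus strand, are shown because Jchain had the lowest p of the members that name a single gene. Capitals mark E-boxes (CANNTG, both strands), the motif of basic helix-loop-helix factors, which include regulators of B cell development.

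Jchain: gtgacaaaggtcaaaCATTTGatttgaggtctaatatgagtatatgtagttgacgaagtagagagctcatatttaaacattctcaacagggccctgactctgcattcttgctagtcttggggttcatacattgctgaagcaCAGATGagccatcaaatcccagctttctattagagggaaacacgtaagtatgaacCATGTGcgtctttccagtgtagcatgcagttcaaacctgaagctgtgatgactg

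E-boxes began at positions -235, -109 and -54 from the start, and 66.2% of all 32851 promoter windows of this length held at least 1. The octamer ATGCAAAT, the Oct factor motif of immunoglobulin promoters, was not in this window in either orientation and was in 1.60% of all windows. The core GAGGAA, bound by PU.1, was also not in this window on either strand and was in 23.3% of all.

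In discs of immunized mice 24 of the 52 immunoglobulin and J chain probe sets rose and 0 fell (limma, adjusted p under 0.05 over 45037 probe sets). Without adjustment 30 had a p under 0.05 and a higher level, and 1 a lower one. Among all probe sets 6.19% passed, 3.30% higher and 2.89% lower, against 46.2% of the members, all higher. Those 1485 higher and 1302 lower became 919 and 503 after quantile normalization of the median-relative values. By chain, Jchain rose, as did 12 of 24 kappa, 8 of 23 heavy and 3 of 4 lambda probe sets. The median difference of the 52 was 0.84 on the log2 scale, against -0.022 over all probe sets, and the range ran from -0.35 to 4.85. In 27 members no naive sample reached the lowest immunized one, a pattern seen in 9.01% of all probe sets. A rise of at least 1 (log2) was reached by 20 of the 24, and by 1.20% of all probe sets (539). Many members share sequence or a target, so these are not 52 separate measurements.

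**Figure D1:**
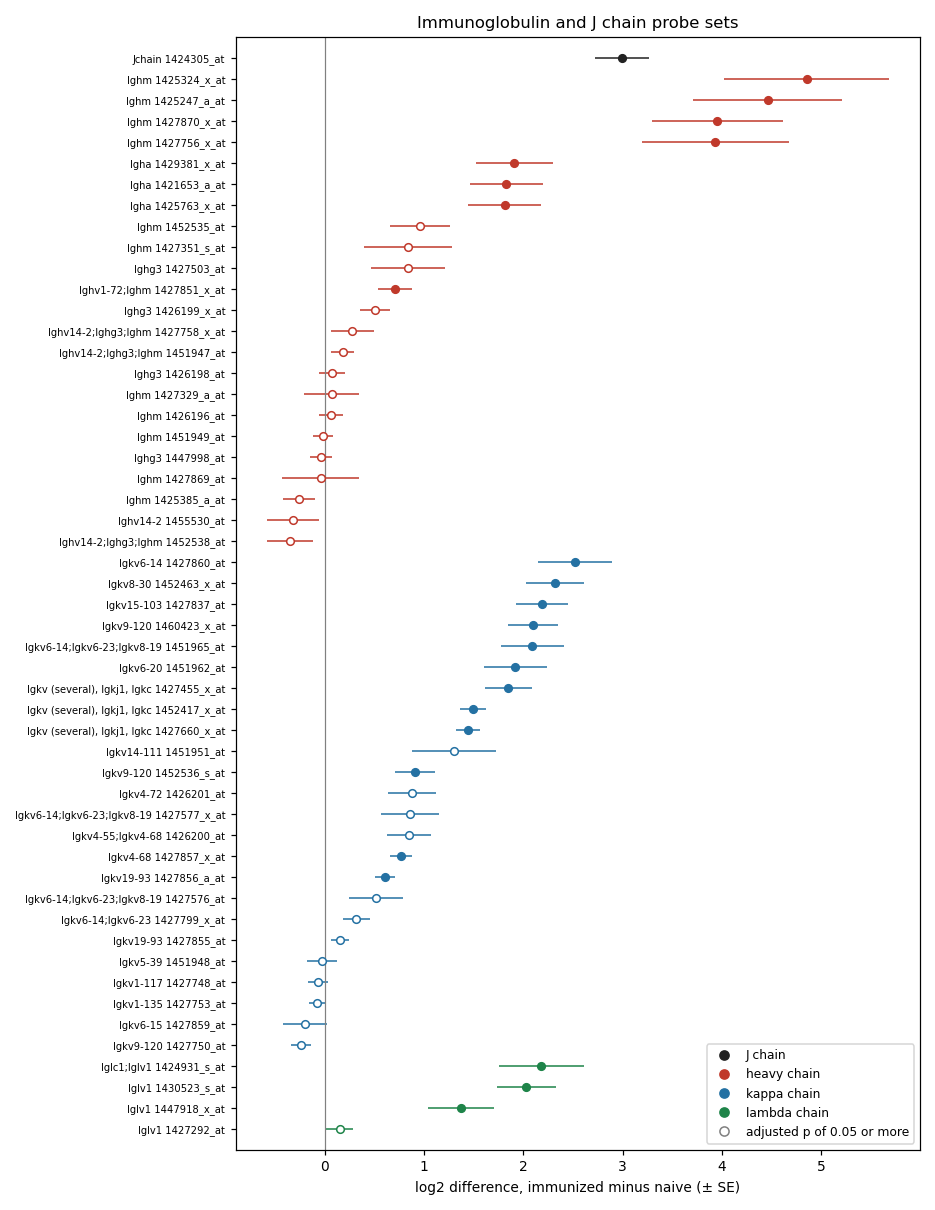
Log2 difference, immunized minus naive, with limma's SE (5 against 3 samples), for the 52 probe sets by chain. Filled points passed at an adjusted p under 0.05, open points did not. The 4 highest are annotated to Ighm (3.93 to 4.85), and no filled point lies below 0.

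Jchain was at -1.99, -3.07 and -3.13 in naive replicates 1 to 3. In immunized replicates 1 to 5 it was at -0.20, 0.28, 0.36, 0.20 and 0.65. The groups did not overlap. The SD among the immunized samples was 0.31, against a median of 0.42 over the members that rose and 0.22 over all probe sets that rose. The difference was 2.99 ± 0.27 (SE, adjusted p = 0.00569), or 7.94-fold. After quantile normalization of the median-relative values, which evens their spread between arrays, Jchain differed by 2.06 on the log2 scale. It ranked 12th of 45037 probe sets by p.

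Among kappa genes, 3 probe sets name the constant gene Igkc together with Igkj1, Igkv6-23, Igkv4-53 and Igkv8-30. The first, 1452417_x_at, was at -1.09, -1.63 and -1.56 in naive and at -0.02, 0.02, 0.06, 0.07 and 0.19 in immunized replicates. The immunized samples were nearly level and all above the naive ones. Its difference was 1.49 ± 0.13 (adjusted p = 0.00483). The second, 1427660_x_at, differed by 1.44 ± 0.12 (adjusted p = 0.00483), and the third, 1427455_x_at, by 1.85 ± 0.24 (adjusted p = 0.0103). Over the 3 the immunized means spanned 0.19 (log2) and the naive means 0.79.

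Of 21 probe sets for kappa variable segments, which encode the antigen-binding end of the light chain, 9 rose. The largest rise was Igkv6-14 (1427860_at), at -1.65, -2.59 and -1.81 in naive and -0.21, 0.51, 1.60, 0.21 and 0.41 in immunized replicates. Immunized replicate 3 was the highest and the groups did not overlap. The difference was 2.52 ± 0.37 (adjusted p = 0.0143), or 5.74-fold.

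Igkv8-30 (1452463_x_at) rose by 2.32 ± 0.29, with naive values of -1.26, -2.63 and -2.38 and immunized values of -0.07, 0.27, 0.59, 0.07 and 0.30. Igkv15-103 (1427837_at) rose by 2.19 ± 0.26, from -1.84, -1.66 and -1.77 to -0.10, 0.52, 0.10, 1.22 and 0.42. Its naive samples lay close together (SD 0.09), and immunized replicate 4 was the highest. Igkv9-120 (1460423_x_at) rose by 2.10 ± 0.25, from -1.26, -2.40 and -1.80 to -0.21, 0.48, 0.21, 0.37 and 0.56. The adjusted p of these 3 was 0.00817, 0.00724 and 0.00763, and quantile normalization brought the difference of Igkv8-30 to 1.70.

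Igkv6-20 (1451962_at) rose by 1.92 ± 0.32 (adjusted p = 0.0199), from -1.11, -1.51 and -1.37 to 0.97, 0.11, 1.46, 0.53 and -0.11, with immunized replicate 5 the lowest and replicate 3 the highest of the group. The probe set 1451965_at, which names Igkv6-14, Igkv6-23 and Igkv8-19, rose by 2.09 ± 0.32 (adjusted p = 0.0157). It was at 1.46 in immunized replicate 3 and between -0.06 and 0.20 in the other immunized samples. Smaller rises were those of a second Igkv9-120 probe set (1452536_s_at, 0.91 ± 0.20), Igkv4-68 (1427857_x_at, 0.77 ± 0.11) and Igkv19-93 (1427856_a_at, 0.61 ± 0.10). In all 9 the groups did not overlap.

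The other 12 kappa variable probe sets did not pass. Of these, Igkv14-111 (1.30 ± 0.42, adjusted p = 0.0908), Igkv4-72 (0.88 ± 0.24, 0.0592) and the set naming Igkv4-55 and Igkv4-68 (0.85 ± 0.22, 0.0551) had no overlap between the groups. Igkv14-111 was at 2.00 in immunized replicate 2 and at 0.32 or less in every other sample. The lowest kappa value was that of the third Igkv9-120 probe set (1427750_at, -0.24 ± 0.10, adjusted p = 0.173). Igkv1-117 (-0.07), Igkv1-135 (-0.08), Igkv5-39 (-0.03) and Igkv6-15 (-0.20) were also slightly negative and overlapped between the groups.

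Of the lambda genes, the array names Iglv1 and Iglc1, a variable and a constant segment of the minor light chain locus of the mouse. The probe set of both (1424931_s_at) was at -0.59, -2.27 and -2.57 in naive and 0.31, 0.28, 0.61, -0.28 and 0.94 in immunized replicates. The groups did not overlap, with naive replicate 1 just below immunized replicate 4. It rose by 2.18 ± 0.43 (adjusted p = 0.0296), and by 2.79 without naive replicate 1. For Iglv1 alone, 1430523_s_at was at -0.89, -2.23 and -2.13 in naive and 0.09, 0.28, 0.66, -0.09 and 0.41 in immunized replicates, without overlap. It rose by 2.03 ± 0.30 (adjusted p = 0.0143), and 1447918_x_at by 1.37 ± 0.33 (adjusted p = 0.0451). In the last, naive replicate 1 (-0.16) lay above immunized replicate 2 (-0.21). The fourth, 1427292_at, differed by 0.15 ± 0.14 (adjusted p = 0.508).

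**Figure D2:**
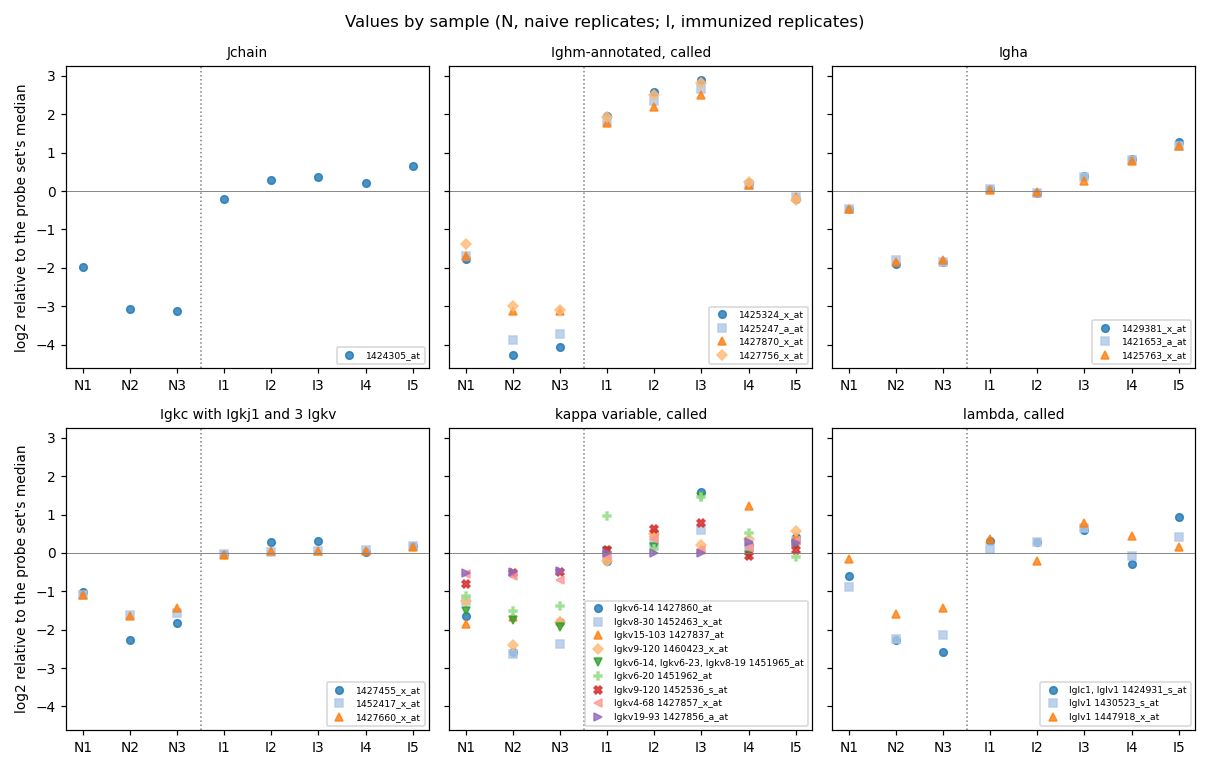
Log2 value relative to the probe set's median in each sample for Jchain and for the called members of each chain, with naive samples left of the dotted line. Each symbol is 1 probe set. The Igkc sets are nearly level across immunized samples, while the Ighm-annotated sets fall from 1.78 to 2.89 in replicates 1 to 3 to between -0.24 and 0.24 in replicates 4 and 5.

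The heavy chain probe sets held the largest and the least even changes. Ighm encodes the mu constant region of IgM, and 11 probe sets are annotated to it alone. Of these, 4 rose by 3.93 to 4.85, and 7 did not pass, with differences of -0.26 to 0.96. The highest, 1425324_x_at, had the largest difference of all 45037 probe sets. It was at -1.78, -4.26 and -4.06 in naive and 1.95, 2.58, 2.89, 0.20 and -0.20 in immunized replicates. Immunized replicates 1 to 3 stood far above replicates 4 and 5, which still lay above every naive sample. The difference was 4.85 ± 0.83 (adjusted p = 0.0206), or 28.8-fold. On the log2 scale it was 3.89 after quantile normalization, 5.60 with array weights and 5.64 without naive replicate 1. Array weights counted naive replicate 1 least (0.29) and immunized replicate 1 most (3.38), so the last 2 settings are not separate checks.

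The other 3 called sets had the same order of the immunized samples: 1425247_a_at rose by 4.46 ± 0.75 (adjusted p = 0.0199), 1427870_x_at by 3.95 ± 0.66 (0.0191) and 1427756_x_at by 3.93 ± 0.74 (0.0261). Quantile normalization brought these 3 to 3.29, 3.05 and 3.08, and 1425247_a_at was at 5.14 with array weights and 5.16 without naive replicate 1. Over all 4 the values lay from -1.78 to -1.37 in naive replicate 1 and from -4.26 to -3.00 in naive replicates 2 and 3. In immunized replicates they lay from 1.78 to 1.95, 2.20 to 2.58 and 2.51 to 2.89 in replicates 1 to 3, from 0.15 to 0.24 in replicate 4 and from -0.24 to -0.15 in replicate 5. Of the 7 others, 1427351_s_at was at 0.16, -1.54 and -1.31 in naive and -0.11, 0.11, 0.14, -1.04 and 0.60 in immunized replicates (0.84 ± 0.44, adjusted p = 0.248). The set 1427329_a_at was at 0.49, -0.60 and -0.31 against -0.11, 0.11, 0.27, -0.76 and 0.13 (0.07 ± 0.28, adjusted p = 0.900). In both the groups overlapped, and naive replicate 1 lay above at least 4 of the 5 immunized samples. The largest difference of the 7 was that of 1452535_at (0.96 ± 0.30, adjusted p = 0.0845). Which constant or variable region each set detects was not tested, so the rise is that of 4 probe sets annotated to Ighm and is not shown for the mu chain itself.

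**Figure D3:**
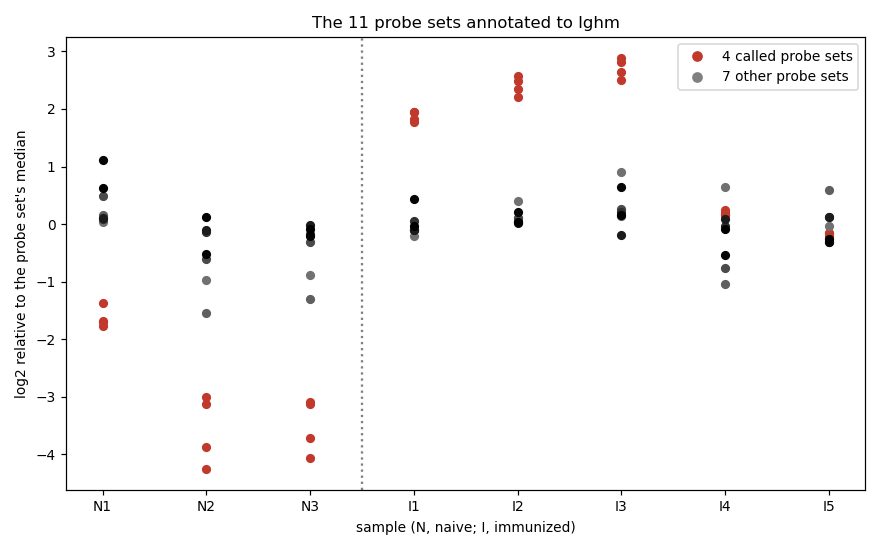
Log2 value relative to the median in each sample for the 11 probe sets annotated to Ighm alone. The 4 called sets (red) lie between -4.26 and -1.37 in naive samples and at 1.78 or more in immunized replicates 1 to 3, and the 7 others (grey) overlap between the groups.

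Igha encodes the alpha constant region of IgA. All 3 of its probe sets rose, by 1.91 ± 0.39 (1429381_x_at, adjusted p = 0.0320), 1.83 ± 0.37 (1421653_a_at, 0.0312) and 1.81 ± 0.37 (1425763_x_at, 0.0320). The first was at -0.48, -1.90 and -1.85 in naive and 0.06, -0.06, 0.39, 0.84 and 1.29 in immunized replicates. The groups did not overlap, but naive replicate 1 lay close to immunized replicates 1 and 2. The 3 sets gave nearly the same values, from 1.17 to 1.29 in immunized replicate 5 and from -0.48 to -0.46 in naive replicate 1.

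The immunized samples were ordered differently by the Ighm and the Igha sets. The mean of the 4 called Ighm sets was 1.87, 2.40 and 2.72 in immunized replicates 1 to 3 and 0.19 and -0.19 in replicates 4 and 5. The mean of the Igha sets was 0.04, -0.04 and 0.35 in replicates 1 to 3 and 0.81 and 1.21 in replicates 4 and 5. The means of the Igkc sets in the same samples were -0.03, 0.11, 0.14, 0.05 and 0.17, and Jchain ran from -0.20 to 0.65. The Igkc sets stayed nearly level across immunized samples that the Ighm and Igha sets placed far apart. Replicates 4 and 5 carry lower sample numbers in their descriptions than the other immunized samples. The meaning of the numbers is not stated in the labels, and their part in this pattern was not tested. No group label separates these samples, so the difference between them has no test.

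None of the 4 probe sets of Ighg3, the constant region of IgG3, passed limma's test (1 had an unadjusted p under 0.05). The highest, 1427503_at, differed by 0.84 ± 0.37 (adjusted p = 0.183), with naive replicate 1 (0.21) above immunized replicates 1 (-0.21) and 2 (-0.42). In 1426199_x_at the groups did not overlap, at 0.51 ± 0.15 (adjusted p = 0.0749). The 2 others differed by 0.07 ± 0.13 and -0.04 ± 0.11. No member is annotated to another IgG subclass, to Ighd or to Ighe, so these isotypes were not analysed here.

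Of the 4 probe sets that name heavy variable and constant genes together, 1 rose, that of Ighv1-72 and Ighm (1427851_x_at, 0.71 ± 0.17, adjusted p = 0.0434). The 3 sets of Ighv14-2, Ighg3 and Ighm differed by 0.28 ± 0.22, 0.18 ± 0.12 and -0.35 ± 0.23, the lowest value of all members, and did not pass. The only set of a heavy variable gene alone, Ighv14-2 (1455530_at), differed by -0.32 ± 0.26 (adjusted p = 0.462).

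Whether a probe set rose went with its type. A suffix in the identifier marks probes that also match other transcripts: _a for forms of the same gene, _s for related genes, _x for probes that resemble further sequences. Of the 26 members with a suffix 19 rose (13 of 17 with _x), against 5 of 26 plain sets. Over all probe sets the shares that rose were 4.18% with a suffix and 3.08% plain. The level differed as well: 11 of 13 members with the lowest array at 8 or more rose, 12 of 30 from 4 to 8 and 1 of 9 below 4. The share of all probe sets that rose at each level is not given here, so the counts by level have no background beside them. How far cross-binding or signal level accounts for which members rose was not tested.

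Probe sets listed with the same sequence record could differ greatly. The plain set 1427869_at and the _x set 1427870_x_at, both annotated to Ighm from 1 record, differed by -0.04 (adjusted p = 0.954) and 3.95. Igkv6-15 (1427859_at) and Igkv6-14 (1427860_at) also share a record, at -0.20 and 2.52, although both are plain sets. For Igkv9-120 the pair gave -0.24 and 0.91, and for a record shared by Igkv19-93 and Igkv4-68 the 3 sets gave 0.15, 0.61 and 0.77. Averaged by gene, Ighm rose by 1.71 ± 0.38 (adjusted p = 0.0336), a value that none of its 11 probe sets shows.

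**Figure D4:**
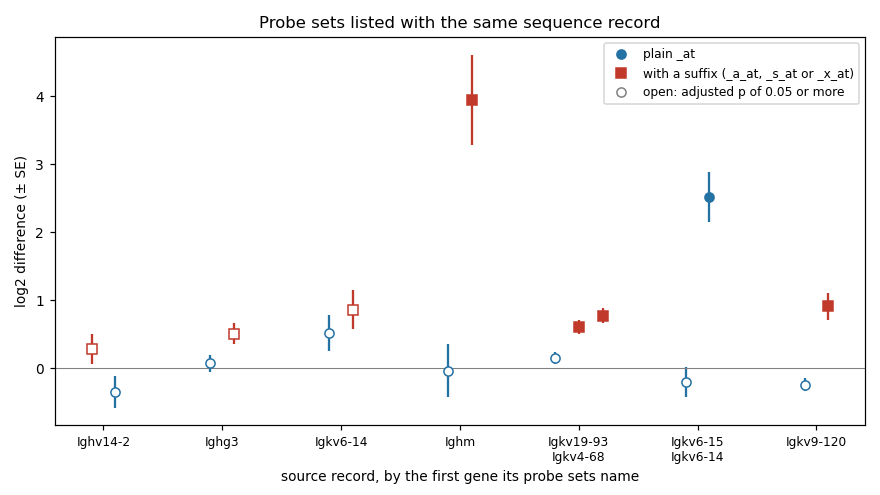
Log2 difference with SE for the probe sets that share a sequence record in the annotation, named by the first gene. Blue circles are plain sets and red squares sets with a suffix, filled where the adjusted p was under 0.05. In the Ighm pair the plain set is at -0.04 and the other at 3.95.

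Other genes of antibody production were read from a chosen list. Of 25 probe sets for 13 regulators and secretory genes of plasma cells, 2 rose and 0 fell. They were 1 of 4 sets of Xbp1 (1420012_at, 0.51 ± 0.09, adjusted p = 0.0233), the transcription factor of the secretory programme, and 1 of 2 sets of Edem1 (1451218_at, 0.62 ± 0.13, adjusted p = 0.0341), which acts in disposal of misfolded proteins. Prdm1, the repressor that drives plasma cell fate, differed by 0.68 ± 0.29 (adjusted p = 0.164) and Mzb1, a chaperone of immunoglobulin, by 0.01 ± 0.30 (0.991). Tnfrsf17, the survival receptor of plasma cells, differed by -0.14 ± 0.10 (0.390), and the sets of Sdc1 by -0.40 to 0.19. Without adjustment 7 of the 25 sets had a p under 0.05 in limma and a higher level, and 2 a lower one. The lower ones were those of Creb3l2 (-0.87 ± 0.24 and -0.67 ± 0.24, adjusted p = 0.0622 and 0.111). In every Xbp1 set the immunized samples lay above all naive ones.

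Of 22 probe sets for 14 genes of the B cell receptor and B cell identity, 1 rose and 0 fell. It was that of the kinase Btk (1.17 ± 0.26, adjusted p = 0.0383), which myeloid cells also express. The receptor subunit Cd79a differed by -0.83 ± 0.26 (adjusted p = 0.0847), at 1.38, 0.09 and 0.48 in naive and -0.55 to 0.09 in immunized samples. Cd79b differed by -0.13 ± 0.24 and the sets of Ms4a1, which encodes CD20, by 0.37 and 0.36, none passing. Of 9 sets for 6 genes of the surrogate light chain and of recombination (Igll1, Vpreb1, Vpreb3, Rag1, Rag2 and Dntt), 0 passed in limma (1 lower, Vpreb3, at an unadjusted p under 0.05).

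Among receptors and transporters of immunoglobulin, 7 of 19 probe sets rose and 1 fell. Those of 4 Fc gamma receptors rose: 1 of 2 sets of Fcgr1 (2.17 ± 0.35, adjusted p = 0.0177), 4 of 5 of Fcgr2b (0.73 to 1.70), and those of Fcgr3 (1.43 ± 0.21) and Fcgr4 (1.42 ± 0.22). Fcgrt, the neonatal receptor that recycles IgG, fell by 0.70 on the log2 scale (SE 0.17, adjusted p = 0.0488). Of 5 sets for survival factors and their receptors, 1 of Tnfsf13b, the B cell factor BAFF, rose (1460255_at, 1.24 ± 0.23, adjusted p = 0.0244).

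Naive replicate 1 stood apart from the other naive samples in the immunoglobulin genes and in several marker lists. It was the highest naive sample in 20 of the 24 members that rose, against 481 of the 1485 probe sets that rose over the whole table. It was the lowest naive sample in 4 of the 24 and in 795 of the 1485. In the same sample precursor B cell markers averaged 0.60, against -0.11 and -0.07 in the other naive and -0.24 to 0.20 in the immunized samples. B cell markers averaged 0.40, against -0.20 and 0.16 in naive and -0.17 to 0.27 in immunized samples. Erythroid markers were also high in it (0.33, against -0.32 and -0.09). So were the markers of T cells (-0.08, against -0.53 and -0.48), neutrophils (-0.08, against -0.55 and -0.63) and macrophages (-0.25, against -0.66 and -0.76), while muscle markers were low (-0.76, against 0.18 and 0.07). Immunized replicate 3 had the highest erythroid mean (0.58) and was the highest immunized sample in 13 of the 24 members, and in 590 of the 1485 probe sets that rose over the whole table. The part of these other cells in the immunoglobulin values was not tested. Without naive replicate 1, 24 members rose, 22 of them among the 24 of the full comparison. The plasma cell markers other than Jchain averaged -0.20 to 0.06 in naive and -0.04 to 0.12 in immunized samples, which overlapped, with 1 of their 14 sets passing. Macrophage markers (3 of 8 sets higher), neutrophil markers (2 of 8) and T cell markers (1 of 5) also rose in part. The macrophage means did not overlap, at -0.76 to -0.25 in naive and -0.08 to 0.75 in immunized samples. Nor did the T cell means, at -0.53 to -0.08 and -0.05 to 0.41, while the neutrophil means overlapped (-0.63 to -0.08 and -0.11 to 0.47).

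**Figure D5:**
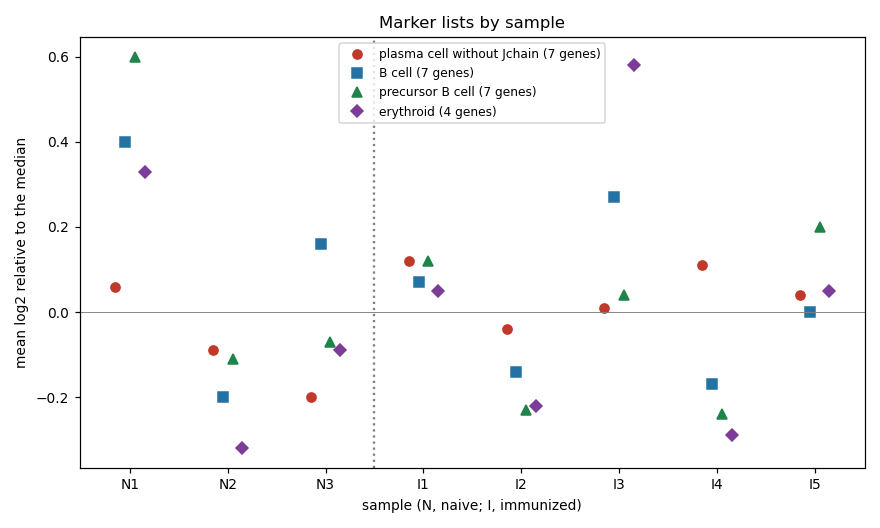
Mean log2 value relative to the median in each sample for plasma cell markers without Jchain, B cell, precursor B cell and erythroid markers. Precursor B cell, B cell and erythroid markers are high in naive replicate 1 (0.60, 0.40 and 0.33), and none of the lists drawn here parts the groups.

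The 24 rises kept their sign in every other setting run, but how many passed depended on single samples. In limma 7 passed without naive replicate 2, 12 without naive replicate 3 and 11 without immunized replicate 1. None of the heavy chain sets did in these 3 settings. Over the whole array 84, 616 and 196 probe sets rose in them, against 1485 in the full comparison. Jchain, the 3 Igkc sets, Igkv8-30, Igkv15-103 and Igkv9-120 (1460423_x_at) passed whichever sample was left out. The Igha sets passed only without naive replicate 1 or immunized replicate 2 among these 8 settings. Without both samples of joined numbers 0 members passed in limma, while 29 had an unadjusted p under 0.05, all of them higher. In that setting 3 probe sets of the array rose and 1 fell.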

How the data were processed

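Per the submitters' processing notes, the authors made the deposited log2 values with RMA. The genome build and software version are not given in the sources used here. Every probe set's median over the 8 arrays is 0 to within 5.0e-07, so the values were also centred per probe set, a step that removes absolute level. The number of arrays limits the precision.

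The titles of the samples gave group and replicate number and speak of biological replicates. Members were found through the platform's annotation (27 of 27 genes matched a RefSeq table, with 0 symbols changed). The 64 control probe sets were left out. Each of 45037 probe sets entered a linear model of the group alone (limma 3.58.1 under R 4.3.3, moderated by eBayes), and its two-sided p was adjusted by Benjamini-Hochberg over the array, with a threshold of 0.05. The script was tested on simulated data. Members and gene lists were chosen with earlier results of these data known. Every called probe set is named. Values by sample are given for called sets with the largest differences of each chain or isotype and for some sets of 1 gene that disagree, the others by range or count.

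The alternatives tried were quantile normalization, array centring, another variance model, array weights, a replicate block, omission of samples or of probe set types, other thresholds and averaging by gene. Quantile normalization was run on the values centred per probe set, so it evened deviations from the median between arrays and not expression levels. The SD of these deviations ran from 0.21 in immunized replicate 1 to 0.41 in naive replicate 1.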

Additional observations from a re-analysis of the deposited data

Results flagged for a closer look

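Of the 52 members, 2 had an immunized sample far from the other immunized samples for the range of the group, where chance flags about 1 in 20 groups. Igkv14-111 (1451951_at) was at 2.00 in immunized replicate 2, against 0.32 in the nearest immunized sample. The set of Igkv6-14, Igkv6-23 and Igkv8-19 (1451965_at) was at 1.46 in immunized replicate 3, against 0.20 in the nearest.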

How the results depend on the processing

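Against 24 members higher (8 heavy, 12 kappa and 3 lambda), quantile normalization left 18 in limma, 4 of them heavy. The replicate number as a block left 3 (2 heavy, 1 kappa, 0 lambda), with 30 higher at an unadjusted p under 0.05. Immunized replicates 4 and 5 have no naive sample of the same number, so the difference in that fit rests on replicates 1 to 3 alone. The loss of those samples and the pairing by number cannot be told apart there. Over the array 76 probe sets rose and 15 fell in that fit, while 4704 rose and 5446 fell with array weights. Deviations of same-numbered samples correlated at -0.06, 0.22 and 0.03. Correlations of differently numbered samples are not given beside these, so whether the numbers pair the samples cannot be told. Without the samples of joined numbers 0 members, and 0 heavy, kappa or lambda sets, passed in limma. Omission of _x and _s sets left 8 (2 heavy, 5 kappa, 0 lambda), of 31 members tested. An adjusted p under 0.01 left 6 (0 heavy, 5 kappa, 0 lambda). Averaged by gene, 11 of 19 genes rose (2 heavy, 7 kappa, 1 lambda). With each sample left out in turn, 7 to 25 members rose, 0 to 8 heavy, 6 to 13 kappa and 0 to 3 lambda. Over the array 84 to 2467 probe sets rose in these fits. Fewer samples were in these fits, and other causes were not tested. In every setting 0 members fell in limma, with at most 2 lower at an unadjusted p under 0.05, and all 24 kept their sign in every fit that tested them. Array centring (24), the trended and robust model (21), array weights (32), omission of sets with an array below 4 (23), of members naming several genes (18), a minimum difference of 1 (20) and an adjusted p under 0.10 (30) stayed within 1.5 times of 24.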
